A study of Mus musculus with 30 samples.

Results

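Fibrils of α-synuclein and lipopolysaccharide (LPS) were compared directly in wild-type primary microglia, the macrophages that live in brain tissue. All 4 wild-type libraries given fibrils and all 6 wild-type libraries given LPS were taken by their labels, which makes 10 of the 30 libraries of the series. Both groups carried intact Lrrk2 on the C57BL/6 background, and the microglia came from mice at postnatal day 21. The other 20 libraries are 5 untreated wild-type controls and, from mice lacking Lrrk2 (knockout, KO), 5 with fibrils, 4 with LPS and 6 controls. They are used below for the shared estimate of the spread, for setting each stimulus against untreated cells, and for the same comparison in the other genotype. Doses of fibrils and LPS, incubation times and the sex of the mice are not stated in the labels, so the results compare these 2 treatments as applied and not equal doses. Nothing in the labels says whether replicates were separate cultures or animals, so the p-values measure no more than how far these samples spread, and that spread may be technical.

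LPS, a component of the outer membrane of Gram-negative bacteria, is bound by CD14 and MD-2 and signals through Toll-like receptor 4. Its adaptors switch on NF-kB, MAP kinases and interferon regulatory factors, which induce immediate early genes, cytokines and chemokines, and then the inhibitors that limit the response. α-Synuclein is a neuronal protein that aggregates into fibrils in Parkinson's disease, and microglia bind and engulf such fibrils and answer them with cytokine and oxidative stress genes.

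Promoters of 4 genes are shown because each stands for a group that differed between the stimuli: Cxcl2 and Il6 for chemokines and cytokines, Dusp1 for immediate early genes, and Gclm for antioxidant genes. The sequences are from RefSeq on GRCm38.p6, cover 250 bases before to 50 bases after the gene's RefSeq start, and are written 5′ to 3′ on the gene's own strand. Gene spans printed further below are from GENCODE M21, and for Dusp1 and Cxcl2 they begin at another base than the RefSeq start. Capitals mark a κB word in Cxcl2 (chr5:90903649-90903948, plus strand) at -97, and a κB word at -44 and an AP-1 word at -249 in Il6 (chr5:30012864-30013163, plus strand). They mark a cyclic AMP response element at -143 in Dusp1 (chr17:26508423-26508722, minus strand), and the core of an antioxidant response element, read on the opposite strand, at -134 in Gclm (chr3:122245307-122245606, plus strand).
Cxcl2: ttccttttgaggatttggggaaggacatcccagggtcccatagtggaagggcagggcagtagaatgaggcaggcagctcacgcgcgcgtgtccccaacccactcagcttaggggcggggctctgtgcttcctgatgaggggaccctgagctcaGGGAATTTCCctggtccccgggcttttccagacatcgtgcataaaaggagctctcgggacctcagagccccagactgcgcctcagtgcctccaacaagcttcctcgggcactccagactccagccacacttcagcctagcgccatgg
Il6: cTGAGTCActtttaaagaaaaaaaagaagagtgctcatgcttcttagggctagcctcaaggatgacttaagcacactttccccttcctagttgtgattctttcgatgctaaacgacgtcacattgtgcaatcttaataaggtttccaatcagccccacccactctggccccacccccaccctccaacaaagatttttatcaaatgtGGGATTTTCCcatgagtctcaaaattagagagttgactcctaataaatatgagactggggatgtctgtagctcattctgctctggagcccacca
Dusp1: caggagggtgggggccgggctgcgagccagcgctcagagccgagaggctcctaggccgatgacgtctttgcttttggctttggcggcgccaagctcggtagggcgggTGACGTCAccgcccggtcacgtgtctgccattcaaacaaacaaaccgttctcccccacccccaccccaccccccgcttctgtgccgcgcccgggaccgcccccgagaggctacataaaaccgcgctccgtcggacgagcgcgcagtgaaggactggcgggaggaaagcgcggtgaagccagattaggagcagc
Gclm: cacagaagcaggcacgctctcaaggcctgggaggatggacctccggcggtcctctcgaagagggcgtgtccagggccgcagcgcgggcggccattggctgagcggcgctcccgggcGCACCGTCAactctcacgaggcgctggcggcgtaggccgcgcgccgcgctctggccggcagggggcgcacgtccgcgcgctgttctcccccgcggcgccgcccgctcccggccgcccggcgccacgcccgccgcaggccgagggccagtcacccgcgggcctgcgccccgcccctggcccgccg

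Positions give a word's leftmost base, with the gene's first base in RefSeq as 0. Each word was searched on both strands: GGGA, any base and TTTCC for κB, TGANTCA for AP-1, TGACGTCA for the cyclic AMP response element and TGACNNNGC for the antioxidant element core, with N for any base. In the Dusp1 window an antioxidant element core (-133) and an E-box, CACGTG (-126), also matched, next to the marked word. Abundant genes are here those whose log2 CPM averaged at least 3 over the 10 libraries. Of the 79 abundant genes that were at least 4-fold lower with fibrils, 56 matched a RefSeq promoter. The κB word stood in 5.36% of these 56 promoters (Cxcl1, Cxcl2 and Il6), against 0.53% of the 6788 promoters of all tested genes of that level and 0.466% of all 27025 RefSeq promoters. The cyclic AMP response element stood in 12.5% of the 56 promoters (Btg2, Dusp1, Errfi1, Maff, Nfkbid, Ppp1r15a and Rcan1), against 3.95% and 2.03% in the same backgrounds. The AP-1 word stood in 17.9% of them, against 5.98% and 8.97%. The other words searched were also more frequent in the 56 promoters: the antioxidant element core stood in 14 of the 56, against 17.2% of tested genes of that level and 3781 of all 27025, and the E-box in 17.9%, against 13.1% and 8.09%. The CArG box stood in 5.36%, against 1.52% and 1.81%, and the interferon response word in 10.7%, against 4.07% and 3.99%. All 7 words were thus more frequent there than in either background. In 79 promoters of abundant genes at least 2-fold higher with fibrils, most words also exceeded their share in tested genes of that level. The κB word stood in 1.27% against 0.53%, the cyclic AMP response element in 7.59% against 3.95% and the AP-1 word in 7.59% against 5.98%. The E-box stood in 17.7% against 13.1%, the CArG box in 2.53% against 1.52% and the interferon response word in 6.33% against 4.07%. The antioxidant element core stood in 15.2% of those 79, against 17.2% of tested genes of that level, and in 8 of 31 promoters (25.8%) of the antioxidant gene list. That share is close to the 14 of 56 among the lower genes, and the immediate early list had it in 7 of 23 promoters (30.4%). The κB word stood in 3 of 13 chemokine and 2 of 10 cytokine promoters, and the cyclic AMP response element in 3 of 23 immediate early promoters. Most promoters of these lists thus lack the word marked in the example. These are matches of letters, given as a description.

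Counts assigned to genes ranged from 17976089 to 35677005 in fibril libraries and from 14277344 to 29409375 in LPS libraries. Levels are given as CPM, counts scaled to a common library total and for composition, and are not corrected for gene length, so they are compared between libraries and not between genes. The microglial marker list was high in every library, with a mean of 7.87 to 7.93 log2 CPM with fibrils, 7.97 to 8.24 with LPS and 7.89 to 8.26 in controls. Markers of other brain cells differed far more. Astrocyte markers summed to 11.6 to 17.8 CPM in fibril libraries, against 13.1 to 265.6 CPM in LPS libraries and 18.6 to 205.4 CPM in controls. Fibroblast markers summed to 25.7 to 27.8 CPM with fibrils, against 58.2 to 161.6 CPM with LPS and 36.4 to 180.0 CPM in controls. LPS replicate 6 stood apart from the other 5 LPS libraries: its means of the astrocyte and fibroblast lists, -1.43 and -1.64 log2 CPM, were the lowest of its group and close to those of the fibril libraries (-1.56 to -0.68 and -1.29 to -0.98). Untreated control 6 was also low, at -0.51 and -0.80. The marker score used below is the mean log2 CPM of the astrocyte, oligodendrocyte and fibroblast lists together, centred over all 30 libraries. It leaves out the other marker lists. Control 6 had a score of -1.924, against -0.189 to 1.552 in the other 4 controls and -2.389 to -2.012 in fibril libraries. In bulk RNA, fewer cells of a type and less RNA per cell cannot be told apart. Replicate libraries differed by more than sampling noise in every group, and by unequal amounts: the mean chi-square per gene between 2 libraries of a group, which is about 1 under sampling noise, had a median of 18.2 for fibrils, against 49.6 for LPS, 75.7 for controls and 101.3 for KO fibrils.

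**Figure D1:**
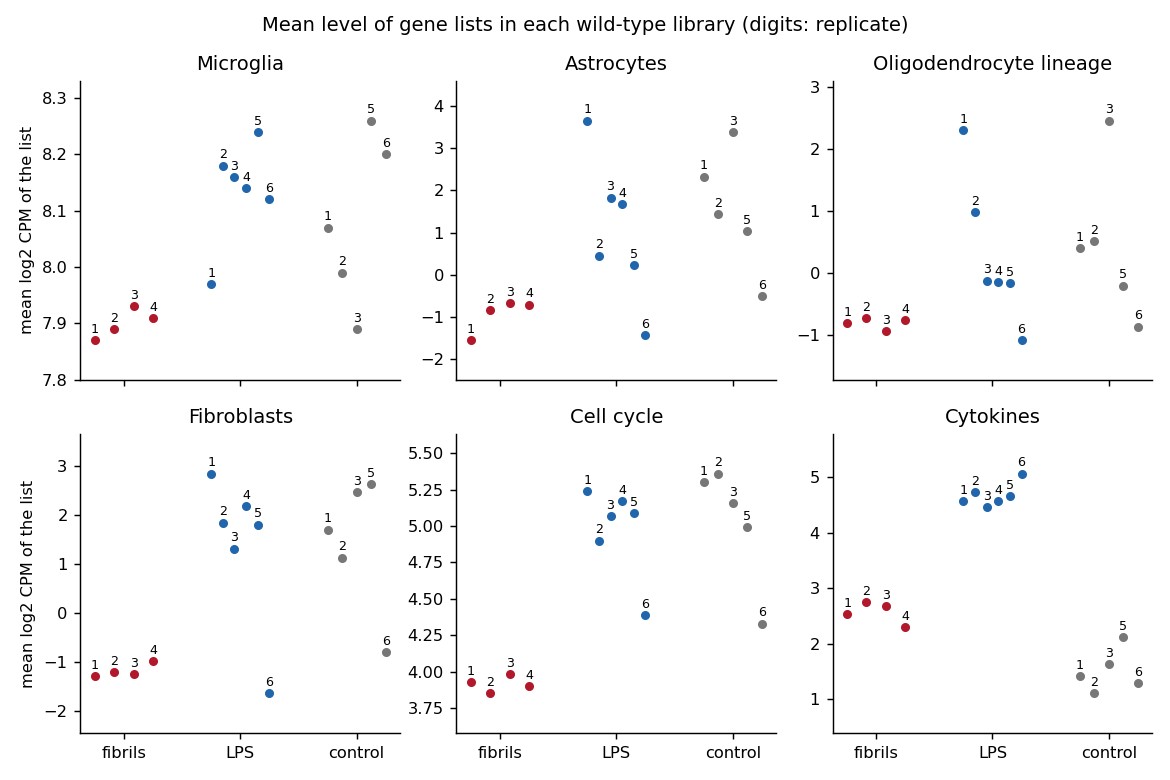
Mean log2 CPM of 6 gene lists (vertical axis) in each wild-type library with fibrils, LPS or no treatment; each point is a library and its digit is the replicate number. Microglial markers lay between 7.87 and 8.26 everywhere, the other-cell markers were low in all 4 fibril libraries, in LPS replicate 6 and in untreated control 6, and the cytokine list was at 4.46 to 5.06 in LPS libraries, above the 2.30 to 2.75 of fibril libraries.

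Of 14346 genes tested, 5316 (37.1%) differed between fibrils and LPS at an adjusted p under 0.05 (edgeR quasi-likelihood test, Benjamini-Hochberg): 2598 (18.1%) were higher with fibrils and 2718 (18.9%) were lower. Of the 19 tested microglial markers 2 were higher and 5 lower, a called share of 36.8%. The numbers in each direction were close, but the sizes were not. At least 4-fold changes numbered 40 upward and 841 downward, and at least 8-fold changes 6 and 548. The median log2 fold change of all tested genes, fibrils over LPS, was -0.037, and the same orientation is used throughout, with ± for standard errors of log2 fold changes. Without LPS replicates 1 and 6, which had the highest and the lowest levels of other-cell markers in their group, 4537 genes were called.

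Most of the very large decreases were in scarce transcripts. Of the 841 genes at least 4-fold lower with fibrils, 762 averaged under 3 log2 CPM over the 10 libraries. In 520 of those 762 (68.2%), LPS replicate 6 was itself under 0.25 times the mean of the other 5 LPS libraries. Among the 79 more abundant genes this held for 1 (1.3%). The abundant genes are therefore described first, and the genes named below passed the test unless their values say otherwise.

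**Figure D2:**
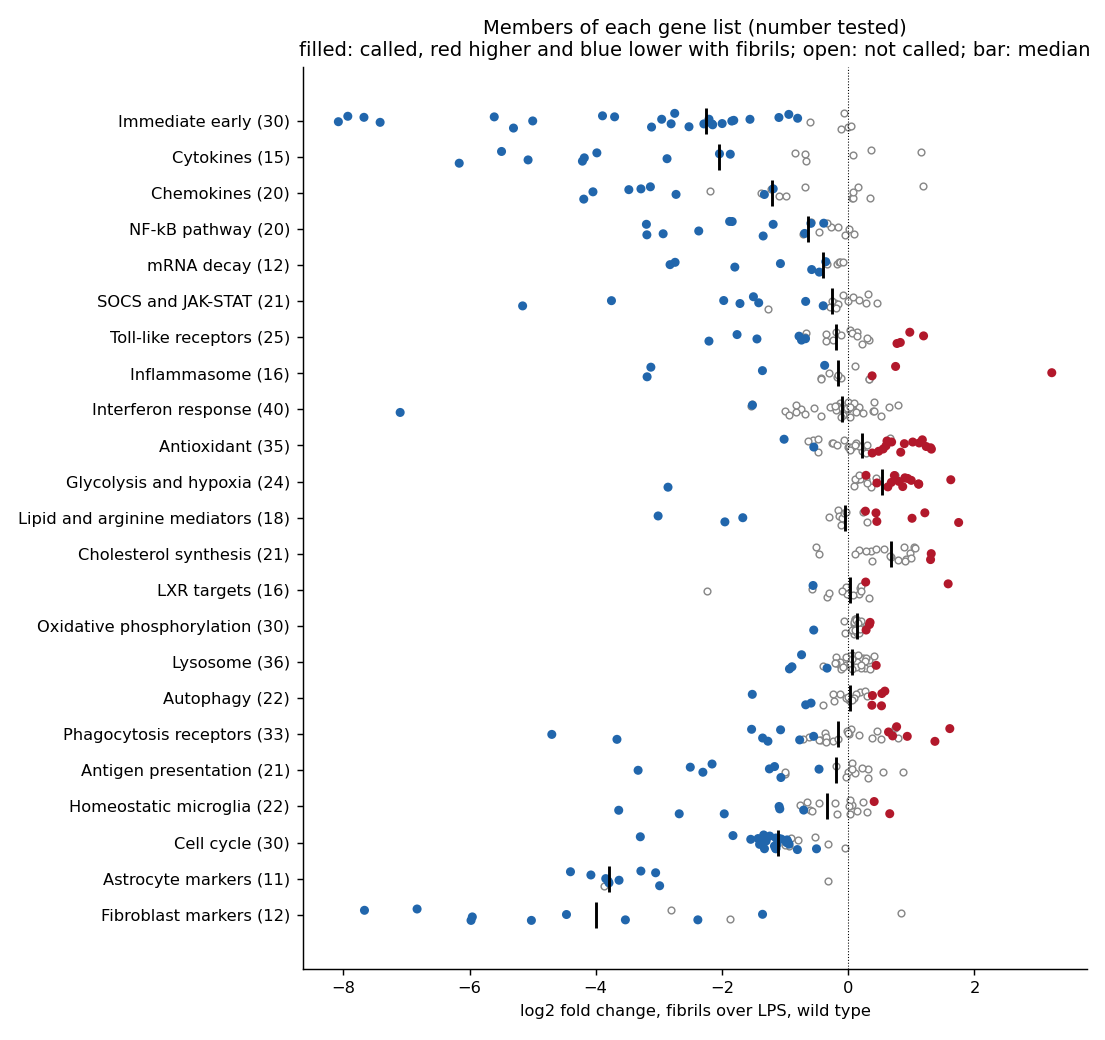
Log2 fold change of fibrils over LPS in wild-type microglia (horizontal axis) for each tested member of the gene lists named on the vertical axis, with the number tested; filled points passed the test, open ones did not, and the vertical bar is the list's median. Immediate early, cytokine, chemokine, NF-kB and cell cycle members lie mostly to the left, and antioxidant and glycolysis members mostly to the right.

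Immediate early genes, which encode transcription factors and phosphatases made within minutes of a signal, were mostly lower with fibrils. Of 30 members tested, 25 (83.3%) were lower with fibrils than with LPS and none was higher, against 18.9% and 18.1% of all tested genes. The list's median log2 fold change was -2.25. Of the 5 that did not pass, Dusp4, Jund, Klf10 and Dusp6 had log2 fold changes of -0.60 ± 0.29, -0.12 ± 0.20, -0.06 ± 0.17 and 0.04 ± 0.28. The stress factor Atf3 (adjusted p 0.992) was 0.82 ± 0.22 over control with fibrils and 0.83 ± 0.20 with LPS. Against untreated controls, fibrils raised 9 members and lowered 9, where 29.4% of all tested genes were called, 13.8% up and 15.6% down. LPS raised 24 and lowered none, where 15.1% of all tested genes were called, 7.10% up and 8.03% down. These last comparisons use the same 5 controls.

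Nr4a1, an orphan nuclear receptor of the immediate early class (chr15:101254269-101274795, plus strand, GRCm38), had the largest difference among abundant genes. It measured 0.980, 1.37, 0.668 and 0.581 CPM in the 4 fibril libraries, against a lowest, median and highest of 165, 221 and 319 CPM in the LPS libraries. Untreated controls held 2.18 to 36.9 CPM, so every fibril library lay below every control and every LPS library above. The log2 fold change was -7.93 ± 0.91 (adjusted p 2.13e-07). Relative to controls it was -4.33 ± 0.81 with fibrils (adjusted p 0.000335) and 3.60 ± 0.63 with LPS (adjusted p 0.000111). Fosb, an AP-1 subunit, showed the same order: 0.134, 0.213, 0.121 and 0.159 CPM with fibrils, 21.9, 45.6 and 66.3 CPM as lowest, median and highest with LPS, and 0.269 to 16.2 CPM in controls. Fosl2, Nr4a2, Nr4a3, Klf2 and Klf4 were also called lower with fibrils than in controls, by -2.60 ± 0.57, -3.78 ± 1.01, -5.28 ± 1.10, -1.86 ± 0.45 and -1.31 ± 0.36 on the log2 scale.

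Dusp1, the phosphatase that switches off p38 and JNK (chr17:26505590-26562128, minus strand), measured 54.8, 49.3, 55.1 and 51.3 CPM with fibrils, against 542, 793 and 913 CPM as lowest, median and highest with LPS. Controls ranged over 26.7 to 96.1 CPM and enclosed all 4 fibril values. The difference between the stimuli was -3.89 ± 0.32 (adjusted p 1.33e-09), while fibrils over control was -0.26 ± 0.28 (adjusted p 0.524). Egr1, a zinc finger factor downstream of ERK, behaved likewise, with 4.23, 4.36, 3.89 and 2.80 CPM after fibrils, 142, 176 and 263 CPM as lowest, median and highest after LPS, and a log2 fold change of -5.61 ± 0.55 (adjusted p 2.48e-08). Errfi1, an inhibitor of EGF receptor kinases, had 23.8, 21.5, 21.9 and 19.3 CPM with fibrils and 416, 494 and 701 CPM as lowest, median and highest with LPS. Its log2 fold change was -4.55 ± 0.18 (adjusted p 1.69e-16), and fibrils over control was -0.05 ± 0.15 (adjusted p 0.817). The histone demethylase Kdm6b differed by -5.75 ± 0.51, the phosphatase Dusp5 by -5.0 ± 0.51, the nuclear protein Csrnp1 by -4.36 ± 0.35 and the inhibitor of helix-loop-helix factors Id3 by -4.71 ± 0.72. Fibril and LPS libraries did not overlap for any of these 4 genes. Such separation was common: every fibril library lay below every LPS library for 16.2% of all tested genes and 35.5% of called genes.

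A few members of the list were raised by both stimuli. Maff, a small Maf factor, had 21.2, 21.5, 17.6 and 18.3 CPM with fibrils and 120.4, 137 and 229 CPM as lowest, median and highest with LPS, both above the 2.89 to 9.38 CPM of controls. Ier3, which protects from cell death, had 30.5, 36.3, 31.6 and 31.1 CPM with fibrils and 120.2, 145 and 166 CPM as lowest, median and highest with LPS, and controls held 14.1 to 19.9 CPM. The log2 fold changes between stimuli were -2.96 ± 0.30 and -2.16 ± 0.21 (adjusted p 2.98e-08 and 2.53e-08).

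Of 15 proinflammatory cytokine genes tested, 9 (60.0%) were lower with fibrils and none was higher, against 18.9% and 18.1% of all tested genes. The list's median log2 fold change was -2.04. Tnf, the early cytokine of macrophages (chr17:35199381-35202007, minus strand), reached 462, 527, 472 and 476 CPM with fibrils, against 1776, 1858 and 2757 CPM as lowest, median and highest with LPS. Controls held 78.02 to 141 CPM, so fibrils took Tnf well above the untreated level and LPS took it further. The difference between stimuli was -2.04 ± 0.22 (adjusted p 1.15e-07), a 4.11-fold higher level with LPS. The rise over control was 2.28 ± 0.22 with fibrils and 4.32 ± 0.23 with LPS (adjusted p 6.62e-08 and 1.5e-13).

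The interleukin-1 genes were split more widely. Il1b (chr2:129364570-129371139, minus strand) had 73.2, 103, 82.6 and 58.4 CPM with fibrils and 998, 1106 and 2029 CPM as lowest, median and highest with LPS, and 7.81 to 63.4 CPM in controls. Its log2 fold change was -3.98 ± 0.64 (adjusted p 3.08e-05), a 15.8-fold higher level with LPS. The rise over control was not past the threshold with fibrils, at 1.11 ± 0.56 (adjusted p 0.138), and was 5.09 ± 0.62 with LPS. Il1a, which encodes interleukin-1α, had 3.92, 4.48, 7.23 and 1.90 CPM with fibrils and 99.2, 116 and 263 CPM as lowest, median and highest with LPS. Its controls held 0.0507 to 1.26 CPM, below every fibril library, and the stimuli differed by -5.07 ± 0.60 (adjusted p 3.42e-07). Il6, the driver of the acute phase response (chr5:30013114-30019981, plus strand), had 1.51, 1.77, 2.13 and 1.004 CPM with fibrils and 5.62, 34.02 and 46.5 CPM as lowest, median and highest with LPS. The difference was -4.21 ± 0.81 (adjusted p 0.000257), and fibrils over control was 0.38 ± 0.79 (adjusted p 0.75).

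Tnfsf9, the ligand of the costimulatory receptor 4-1BB, differed by -4.18 ± 0.38, and the gp130 ligands Lif and Osm by -5.49 ± 0.75 and -1.87 ± 0.35. Csf1, a growth factor of microglia, had 2.23, 2.41, 2.07 and 1.85 CPM with fibrils and 12.98, 14.7 and 22.9 CPM as lowest, median and highest with LPS, a difference of -2.87 ± 0.44 (adjusted p 1.65e-05). The 6 cytokine genes that did not pass the test spanned log2 fold changes from -0.85 ± 0.60 for Il27 to 1.15 ± 0.47 for Tnfsf15. Among them Csf3, the growth factor of granulocytes, was raised over control by both stimuli, by 6.11 ± 0.73 with fibrils and 6.80 ± 0.71 with LPS, and differed by -0.68 ± 0.49 between them (adjusted p 0.283).

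Chemokine genes fell into a strongly and a weakly separated group. Of 20 tested, 8 were lower with fibrils and none was higher, with a median log2 fold change of -1.21. The called share was 40.0%, against 37.1% of all tested genes, of which 18.9% were called lower. Cxcl2, which attracts neutrophils (chr5:90903871-90905938, plus strand), had 174, 198, 173 and 151 CPM with fibrils and 1252, 1660.5 and 2203 CPM as lowest, median and highest with LPS, over 29.0 to 60.6 CPM in controls. It was raised by both stimuli, by 2.10 ± 0.35 with fibrils and 5.39 ± 0.39 with LPS, and differed by -3.28 ± 0.38 (adjusted p 2.81e-07). Its neighbour Cxcl1 had 13.1, 13.7, 10.7 and 7.35 CPM with fibrils and 95.8, 167 and 311 CPM as lowest, median and highest with LPS, a difference of -4.04 ± 0.57 (adjusted p 5.63e-06). The monocyte attractant Ccl2 differed by -3.13 ± 0.63 and Ccl22, a ligand of CCR4, by -4.19 ± 0.69 (adjusted p 0.000386 and 3.72e-05). Fibrils over control was not past the threshold for either (adjusted p 0.403 and 0.113).

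The chemokines Ccl3 and Ccl4 were much closer. Ccl3 had 566, 716, 608 and 561 CPM with fibrils and 887, 938 and 1262 CPM as lowest, median and highest with LPS, against 73.4 to 149 CPM in controls. The stimuli differed by -0.69 ± 0.33, which did not pass the test (adjusted p 0.1), although no libraries overlapped. Ccl4 had 443, 551, 502 and 445 CPM with fibrils and 1070.0, 1187 and 1501 CPM as lowest, median and highest with LPS, and differed by -1.33 ± 0.42 (adjusted p 0.0156).

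**Figure D3:**
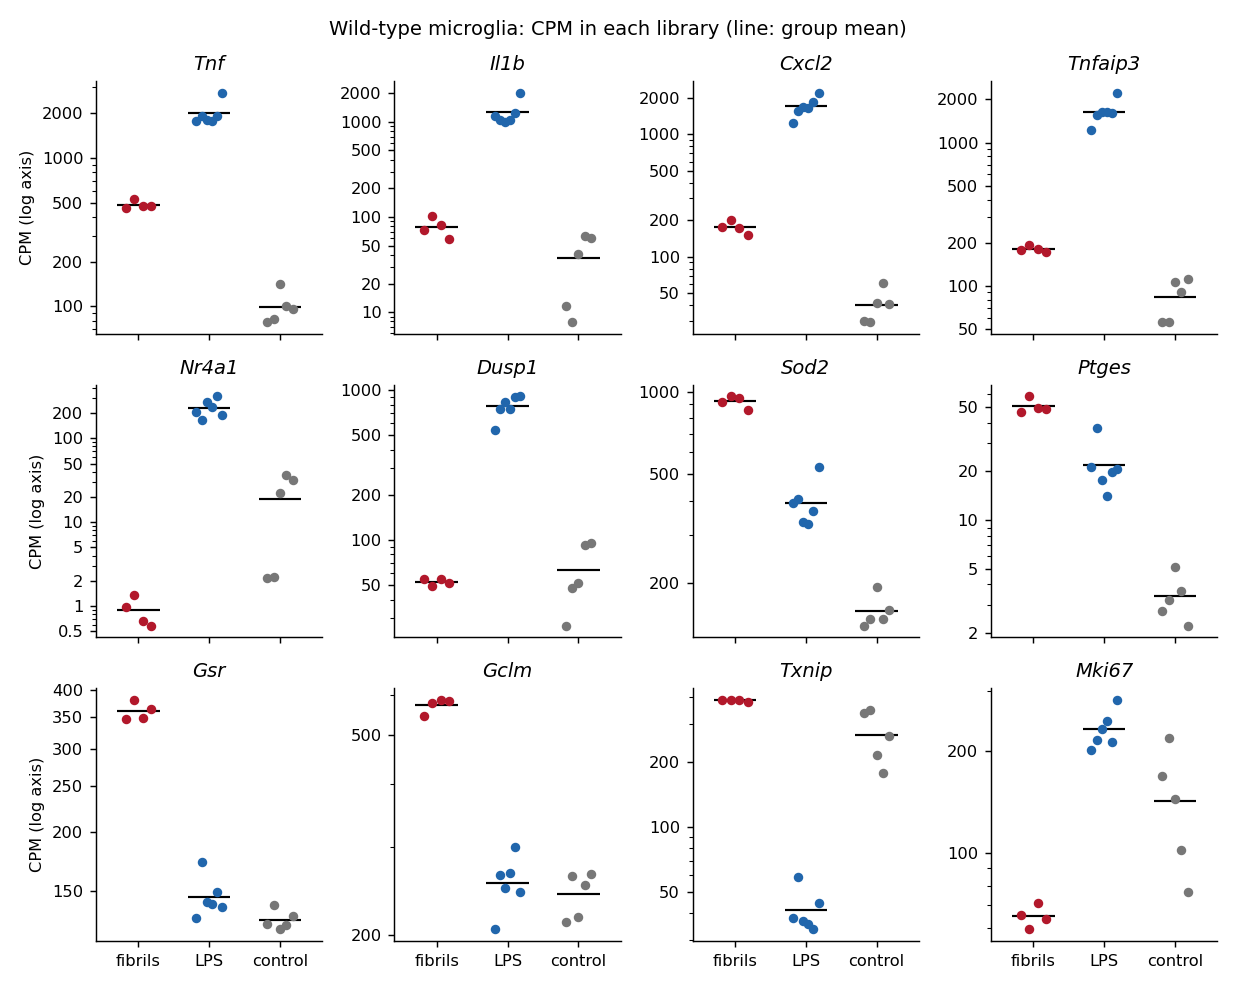
CPM of 12 genes (vertical axes, logarithmic) in every wild-type library with fibrils, LPS or no treatment; points are libraries and lines are group means. Tnf, Il1b, Cxcl2, Tnfaip3, Nr4a1, Dusp1 and Mki67 are lower in every fibril library than in any LPS library, and Sod2, Ptges, Gsr, Gclm and Txnip are higher in every fibril library.

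Inhibitors of the NF-kB pathway followed the cytokines. Of 20 pathway genes 11 (55.0%) were lower with fibrils and none was higher, against 18.9% and 18.1% of all tested genes. The list's median log2 fold change was -0.64. Tnfaip3, which encodes the ubiquitin-editing inhibitor A20, had 177, 191, 182 and 172 CPM with fibrils and 1218, 1616 and 2237 CPM as lowest, median and highest with LPS, over 55.5 to 112 CPM in controls. It rose with both stimuli, by 1.11 ± 0.20 with fibrils and 4.30 ± 0.21 with LPS, and differed by -3.19 ± 0.22 (adjusted p 7.79e-11). Nfkbia, the inhibitor IκBα, had 239.8, 251, 244 and 237 CPM with fibrils and 648, 861 and 1273 CPM as lowest, median and highest with LPS, a difference of -1.88 ± 0.20 (adjusted p 1.07e-07). The nuclear inhibitor Nfkbid differed by -3.20 ± 0.18 and Nfkbib by -1.19 ± 0.12, and the subunits Rel, Rela and Relb by -2.93 ± 0.35, -0.69 ± 0.11 and -0.39 ± 0.10.

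Of 12 genes of RNA-binding regulators of cytokine mRNA decay, 7 (58.3%) were lower with fibrils and none was higher. Of all tested genes 18.9% were lower and 18.1% higher. Most of the 7 encode proteins that destabilise such mRNAs, but Elavl1 (log2 fold change -0.36 ± 0.12) encodes HuR, which stabilises them. Zfp36, which encodes tristetraprolin, had 93.2, 108, 103 and 94.5 CPM with fibrils, within the 69.1 to 114 CPM of controls, and 483, 680.5 and 779 CPM as lowest, median and highest with LPS. Its difference was -2.74 ± 0.21 (adjusted p 5.49e-10). The related Zfp36l1 had 24.9, 19.7, 23.3 and 19.03 CPM with fibrils, below the 32.04 to 94.8 CPM of controls, and 129.8, 149.8 and 178 CPM as lowest, median and highest with LPS. The nuclease gene Zc3h12a (Regnase-1) differed by -1.80 ± 0.28 and Zc3h12c by -1.07 ± 0.14.

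Of 21 genes of cytokine receptor feedback (SOCS, JAK, STAT and PIM families), 8 were lower with fibrils and none was higher. This is a called share of 38.1%, against 37.1% of all tested genes, of which 18.9% were called lower. Socs3, the inhibitor of gp130 signalling, had 34.6, 43.1, 38.2 and 36.3 CPM with fibrils and 394, 479 and 770.5 CPM as lowest, median and highest with LPS, over 5.12 to 12.1 CPM in controls, a difference of -3.75 ± 0.42 (adjusted p 1.49e-07). Cish differed by -5.16 ± 0.87, Pim1 by -1.97 ± 0.32 and Pim3 by -1.50 ± 0.32. The third PIM kinase gene, Pim2, stood the other way round although it is not in that list. It had 32.2, 38.1, 33.05 and 34.6 CPM with fibrils, 2.97, 6.97 and 13.3 CPM as lowest, median and highest with LPS and 4.55 to 14.1 CPM in controls, and was 2.26 ± 0.34 higher with fibrils (adjusted p 1.2e-05).

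Receptors and adaptors of the Toll-like receptor pathway moved in both directions, with 4 of 25 higher with fibrils and 6 lower. That called share of 40.0% is close to the 37.1% of all tested genes. Tlr4 itself had 208, 215, 212 and 202 CPM with fibrils and 159.6, 183 and 202 CPM as lowest, median and highest with LPS, a difference of 0.21 ± 0.11 that did not pass the test (adjusted p 0.13). It passed when no more than the 10 compared or the 15 wild-type libraries were fitted, and in none of the other alternatives. Tlr2, which pairs with Tlr1 or Tlr6 to sense lipopeptides, had 235, 228, 229.8 and 235 CPM with fibrils and 501, 612 and 813 CPM as lowest, median and highest with LPS. It was lower with fibrils (log2 fold change -1.45 ± 0.17, adjusted p 3.7e-07), and fibrils over control was 0.39 ± 0.17 (adjusted p 0.0835). Its partners Tlr1 and Tlr6 were higher with fibrils by 0.77 ± 0.25 and 0.82 ± 0.14 (adjusted p 0.0182 and 7.44e-05), and neither moved past the threshold with LPS over control.

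Cd14, the coreceptor that hands LPS to its receptor, had 681, 688, 689.9 and 646 CPM with fibrils, 968, 1110.5 and 1576 CPM as lowest, median and highest with LPS and 243 to 617 CPM in controls, a difference of -0.78 ± 0.19 (adjusted p 0.00275). Tirap, the adaptor that brings MyD88 to the membrane, had 22.3, 20.7, 22.7 and 20.8 CPM with fibrils and 7.77, 9.17 and 11.7 CPM as lowest, median and highest with LPS, a difference of 1.19 ± 0.20 (adjusted p 4.48e-05). Irak3, a pathway inhibitor also called IRAK-M, had 122, 140.5, 125 and 120.1 CPM with fibrils and 55.7, 64.8 and 74.5 CPM as lowest, median and highest with LPS. It differed by 0.98 ± 0.22 (adjusted p 0.00139) and was raised over control by fibrils (1.19 ± 0.23, adjusted p 0.000534). With LPS over control it was 0.22 ± 0.21 (adjusted p 0.647).

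Few interferon genes differed. By edgeR only Ifnb1 and Irf1 of 40 tested members (5.0%) differed, both lower with fibrils, against 37.1% of all tested genes. The list's median log2 fold change was -0.09. Ifnb1, the gene of interferon-β, was nearly absent with fibrils at 0.223, 0.0305, 0.121 and 0 CPM, against 7.63, 13.1 and 18.4 CPM as lowest, median and highest with LPS. The difference was -7.10 ± 0.60 (adjusted p 1.9e-09). Irf1, a factor induced by NF-kB and interferons, had 137, 161, 149.8 and 156 CPM with fibrils and 177, 423 and 674 CPM as lowest, median and highest with LPS, a difference of -1.52 ± 0.25 (adjusted p 3.53e-05). The interferon-stimulated genes themselves spread widely within both groups. Rsad2, which encodes viperin, had 243, 399, 327 and 308 CPM with fibrils and 167, 426 and 635 CPM as lowest, median and highest with LPS, a difference of -0.28 ± 0.91 (adjusted p 0.833), and Isg15 differed by -0.93 ± 0.84 (adjusted p 0.396). The list's mean level was 5.88 to 6.34 log2 CPM with fibrils, 5.55 to 6.93 with LPS and 5.11 to 6.44 in controls, so the groups overlapped. Between the stimuli the overlap came from LPS replicates 1 and 6, at 5.55 and 5.57. LPS replicates 2 to 5, at 6.86, 6.64, 6.93 and 6.57, lay above every fibril library.

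Inflammasome genes were divided, with 3 of 16 higher with fibrils and 4 lower, a called share of 43.8% against 37.1% of all tested genes. Nlrp3, the sensor that assembles in response to particles and ATP, had 128, 161, 123 and 124 CPM with fibrils and 991, 1082 and 1723 CPM as lowest, median and highest with LPS, over 33.3 to 76.4 CPM in controls. It rose with both stimuli, by 1.22 ± 0.29 with fibrils and 4.35 ± 0.31 with LPS, and differed by -3.13 ± 0.32 (adjusted p 4.11e-08). Casp1, the protease that matures interleukin-1β, had 168, 184, 177 and 164 CPM with fibrils and 75.6, 108 and 116 CPM as lowest, median and highest with LPS, and was 0.75 ± 0.14 higher with fibrils (adjusted p 0.00026). Every fibril library exceeded every LPS library for Casp1, and LPS over control was 0.15 ± 0.14 (adjusted p 0.624).

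Txnip, which encodes thioredoxin-interacting protein, a brake on glucose uptake that also binds NLRP3 (chr3:96557957-96561883, plus strand), was the most increased of the abundant genes. It had 390.0, 388, 391 and 382 CPM with fibrils, against 33.7, 37.6 and 59.2 CPM as lowest, median and highest with LPS. Controls held 178 to 350.5 CPM, closer to the fibril libraries. The difference was 3.22 ± 0.23 (adjusted p 1.74e-10), a 9.35-fold higher level with fibrils. Relative to control it was 0.53 ± 0.24 with fibrils, which did not pass (adjusted p 0.092), and -2.70 ± 0.22 with LPS (adjusted p 4.23e-10).

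Of 13 genes of anti-inflammatory cytokines and alternative activation, 2 were higher with fibrils and 4 lower. Their called share was 46.2%, against 37.1% of all tested genes. Il10, the cytokine that restrains macrophages, had 5.83, 6.68, 8.08 and 7.45 CPM with fibrils and 31.8, 59.9 and 89.7 CPM as lowest, median and highest with LPS, a difference of -3.12 ± 0.64 (adjusted p 0.000469). The interleukin-1 receptor antagonist Il1rn had 60.6, 65.3, 57.2 and 59.5 CPM with fibrils and 53.2, 150.0 and 314 CPM as lowest, median and highest with LPS, so the groups overlapped, and it differed by -1.48 ± 0.45 (adjusted p 0.0125). The interleukin-13 receptor gene Il13ra1 was higher with fibrils by 0.57 ± 0.14, and the TGF-β receptor gene Tgfbr2 had a log2 fold change of -0.70 ± 0.17.

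Several genes rose over control with both stimuli and did not pass the test between them. Acod1, whose enzyme makes itaconate, had 854, 1123, 947 and 842 CPM with fibrils and 857, 918 and 1307 CPM as lowest, median and highest with LPS, over 41.8 to 113 CPM in controls. The difference was -0.11 ± 0.34 (adjusted p 0.825), and the rise over control was 3.54 ± 0.38 with fibrils and 3.65 ± 0.36 with LPS. Icam1, an adhesion molecule, differed by 0.00 ± 0.21 (adjusted p 0.999), with rises of 1.82 ± 0.22 and 1.82 ± 0.21 over control. The C-type lectin Clec4e (Mincle) differed by -0.63 ± 0.29, Gch1, which makes tetrahydrobiopterin, by -0.14 ± 0.19, and thioredoxin reductase Txnrd1 by 0.02 ± 0.14 (adjusted p 0.0874, 0.582 and 0.919). For each of these 5 genes fibril and LPS libraries overlapped, as for 64.6% of all tested genes. The standard errors give the size of difference that these libraries could still hold. Nos2, the inducible nitric oxide synthase, was not tested because its counts were too few: 41 in all fibril libraries, 19 in all LPS libraries and 8 in all controls.

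**Figure D4:**
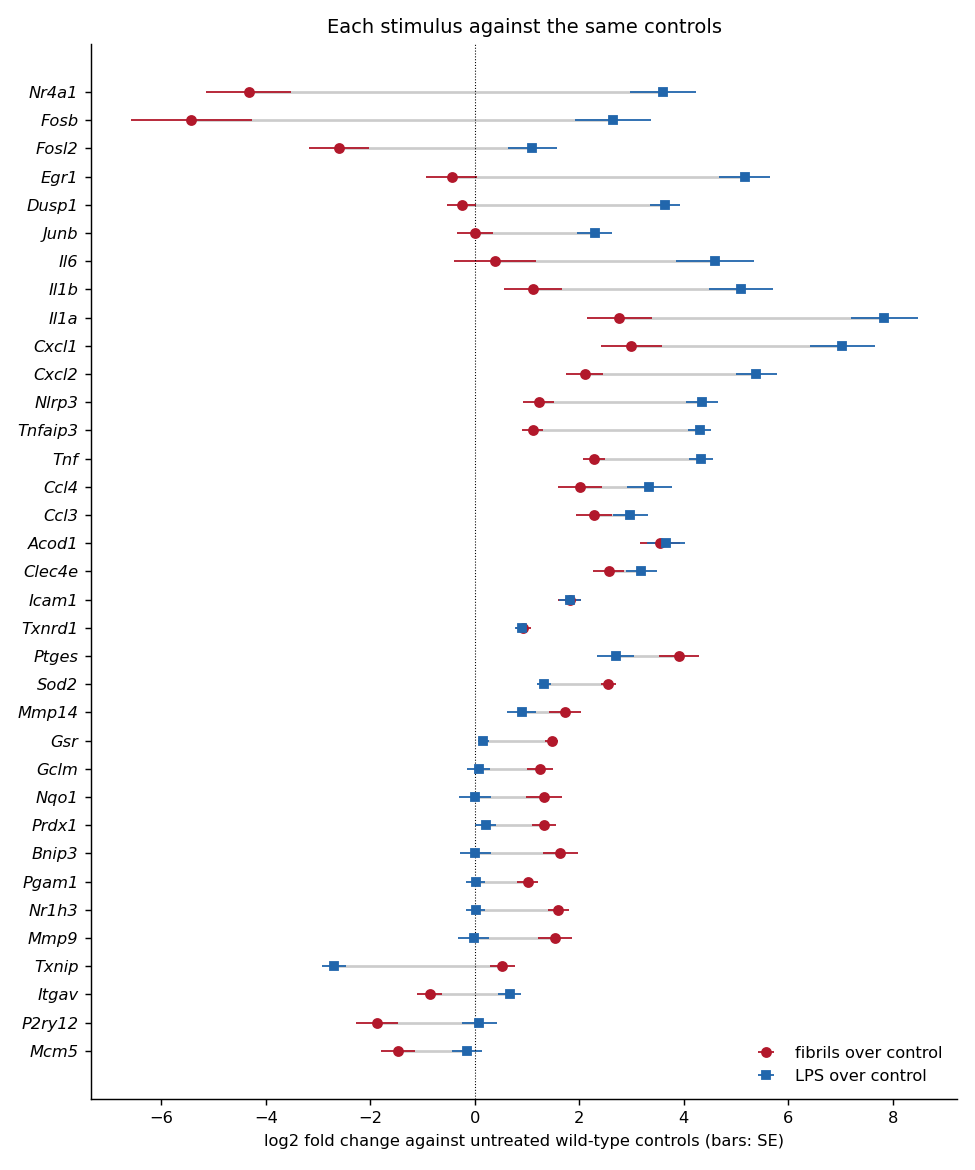
Log2 fold change against the same untreated wild-type controls (horizontal axis, bars are standard errors) for the genes on the vertical axis, with circles for fibrils and squares for LPS. Nr4a1 is at -4.33 with fibrils and 3.60 with LPS, Acod1 at 3.54 and 3.65, and Sod2 at 2.55 and 1.32.

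Antioxidant genes were more often higher than lower with fibrils. Of 35 tested, 14 were higher with fibrils and 2 were lower, with a median log2 fold change of 0.22. The called share was 45.7%, against 37.1% of all tested genes (18.1% higher and 18.9% lower). The marker score was -2.389 to -2.012 in fibril libraries, -2.561 in LPS replicate 6 and -0.582 to 1.709 in the other LPS libraries. Between these groups it largely follows the treatment, so a fit with it cannot tell the 2 apart. With the score as a covariate, chosen after seeing the data, 9 of the 35 antioxidant genes were higher and 4 lower. That fit called 2123 of all 14346 tested genes higher and 2101 lower. Sod2, the mitochondrial superoxide dismutase induced by NF-kB (chr17:13006846-13040063, plus strand), had 917, 965, 953 and 858 CPM with fibrils and 329, 379 and 529 CPM as lowest, median and highest with LPS, over 139 to 193 CPM in controls. Both stimuli raised it and fibrils did so more, by 2.55 ± 0.15 against 1.32 ± 0.13 with LPS, a difference of 1.23 ± 0.13 (adjusted p 1.04e-07).

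Gsr, Gclm and Gss rose over control with fibrils and did not pass that test with LPS. Gsr, glutathione reductase, had 347, 382, 349 and 364 CPM with fibrils and 132, 141 and 173 CPM as lowest, median and highest with LPS, a difference of 1.31 ± 0.11 (adjusted p 3.42e-09). LPS over control was 0.16 ± 0.11 (adjusted p 0.429). Gclm, the modifier subunit of the rate-limiting ligase of glutathione synthesis (chr3:122245557-122270732, plus strand), had 546, 579.5, 588 and 584 CPM with fibrils and 206, 256 and 299 CPM as lowest, median and highest with LPS, a difference of 1.17 ± 0.23 (adjusted p 0.000295). Gss, glutathione synthetase, differed by 1.02 ± 0.11 (adjusted p 1.44e-07). For all 3 genes every fibril library lay above every LPS library, as for 19.3% of all tested genes and 43.4% of called genes.

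Nqo1, a quinone reductase and standard target of the factor Nrf2, had 18.9, 17.6, 20.8 and 20.5 CPM with fibrils and 5.91, 8.04 and 9.08 CPM as lowest, median and highest with LPS, a difference of 1.32 ± 0.32 (adjusted p 0.00238). The peroxiredoxin Prdx1 differed by 1.12 ± 0.22, and the biliverdin reductase Blvrb by 0.89 ± 0.14 (adjusted p 0.00026 and 2.96e-05). Hmox1, heme oxygenase 1, had 2020.0, 1811, 1996 and 1957 CPM with fibrils and 761, 1090.4 and 1895 CPM as lowest, median and highest with LPS; the difference of 0.66 ± 0.34 did not pass the test (adjusted p 0.123). It passed at 0.64 with the 10 compared libraries and at 0.65 with the 15 wild-type libraries (adjusted p 0.0285 and 0.0325), and was -0.0019 with the marker score as covariate. The Nrf2 gene itself, Nfe2l2, was lower with fibrils (log2 fold change -0.55 ± 0.21, adjusted p 0.0462), a call that was lost in 12 of 30 fits leaving out a library (any fibril library, LPS replicate 2, 3, 5 or 6, KO control 3, KO LPS 1 or 2, or KO fibril 4), with an adjusted p up to 0.11. Metallothionein Mt2, a metal buffer, had a log2 fold change of -1.02 ± 0.23 (adjusted p 0.00116).

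Glycolysis and hypoxia genes were higher with fibrils in 13 of 24 cases and lower in 1, with a median log2 fold change of 0.54. Their called share was 58.3%, against 37.1% of all tested genes (18.1% higher and 18.9% lower). With the marker score as covariate 7 of the 24 were higher and 1 lower. Pgk1, Pgam1 and Pfkl encode glycolytic enzymes. Pgk1 had 1022, 1073, 1037 and 1057 CPM with fibrils and 433, 487 and 766 CPM as lowest, median and highest with LPS, a difference of 0.94 ± 0.19 (adjusted p 0.000481). Pgam1 differed by 1.0 ± 0.19 and Pfkl by 1.11 ± 0.20. Bnip3, a hypoxia-induced mitophagy receptor, had 139, 143, 138 and 122 CPM with fibrils and 32.5, 35.9 and 74.6 CPM as lowest, median and highest with LPS, a difference of 1.62 ± 0.31 (adjusted p 0.000266), and the lactate exporter Slc16a3 differed by 1.12 ± 0.33 (adjusted p 0.00899). In Pgk1, Bnip3 and Slc16a3 the highest LPS library was replicate 6. The exception was Vegfa, the vascular growth factor, with 11.1, 11.2, 8.63 and 9.57 CPM with fibrils and 37.2, 77.2 and 94.2 CPM as lowest, median and highest with LPS, a difference of -2.86 ± 0.60 (adjusted p 0.000583).

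Of 18 genes of lipid and arginine mediators, 6 were higher with fibrils and 3 were lower. Ptgs2, the inducible cyclooxygenase, had 42.2, 49.2, 49.1 and 29.97 CPM with fibrils and 238, 346 and 449 CPM as lowest, median and highest with LPS, a difference of -3.01 ± 0.51 (adjusted p 5.39e-05). The next enzyme of the prostaglandin E2 pathway, Ptges, stood the other way. It had 46.7, 58.5, 49.1 and 48.7 CPM with fibrils, 14.1, 20.3 and 37.3 CPM as lowest, median and highest with LPS and 2.22 to 5.15 CPM in controls, a difference of 1.21 ± 0.33 (adjusted p 0.00567). Ass1, which resynthesises arginine from citrulline, had 55.99, 65.8, 56.9 and 61.8 CPM with fibrils and 9.82, 19.8 and 21.9 CPM as lowest, median and highest with LPS, a difference of 1.75 ± 0.29 (adjusted p 3.62e-05). Asl, the next enzyme of that cycle, differed by 0.45 ± 0.11.

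Nr1h3, the gene of the liver X receptor α, which senses oxysterols, had 62.2, 71.3, 63.5 and 71.4 CPM with fibrils and 15.3, 23.5 and 27.3 CPM as lowest, median and highest with LPS, a difference of 1.58 ± 0.19 (adjusted p 3.66e-07). LPS over control was 0.02 ± 0.18 (adjusted p 0.98). Of 16 genes of this receptor's pathway 3 (18.8%) were called, under the 37.1% of all tested genes, and the list's median was 0.03. Lpcat3 was the other one higher, by 0.28 ± 0.07. The cholesterol exporter Abca1 was lower (log2 fold change -0.56 ± 0.21). Its call was lost in 7 of 30 fits leaving out a library (any fibril library, or LPS replicate 2, 3 or 6). In those fits the adjusted p was up to 0.104.

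The remaining abundant genes most raised by fibrils over LPS have varied roles. H2-M2, a nonclassical class I gene, had 50.5, 60.4, 52.1 and 56.5 CPM with fibrils and 2.88, 7.16 and 16.6 CPM as lowest, median and highest with LPS, over 1.54 to 4.79 CPM in controls, a difference of 2.80 ± 0.51 (adjusted p 0.000142). The lipid phosphatase Plpp1 differed by 2.14 ± 0.20, the inhibitory receptor Pilra by 2.08 ± 0.25, the mitochondrial adenylate kinase Ak4 by 1.93 ± 0.52 and the hyaluronan receptor Layn by 1.82 ± 0.39. The transcription factor Cebpd differed by 1.71 ± 0.29 and the receptor Slamf8 by 1.67 ± 0.39. Fibril libraries lay above LPS libraries for each of these 7 genes, as for 19.3% of all tested genes and 43.4% of called genes. Rn7s1, a copy of the signal recognition particle RNA, differed by 2.41 ± 0.91 (adjusted p 0.0393); it shares reads with near-identical copies, and its call was lost in 8 of 30 fits leaving out a library (fibril replicate 1, 2 or 3, or LPS replicate 1, 2, 3, 4 or 5), with an adjusted p up to 0.0823.

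Matrix proteases and their regulators were divided, with 4 of 20 higher with fibrils and 8 lower, a called share of 60.0% against 37.1% of all tested genes. Mmp9, a gelatinase, had 275, 331, 275 and 330.0 CPM with fibrils and 84.8, 89.3 and 169.9 CPM as lowest, median and highest with LPS, a difference of 1.56 ± 0.31 (adjusted p 0.000323). Mmp14, which activates other matrix proteases, differed by 0.83 ± 0.28, a call lost without fibril replicate 2 (adjusted p 0.0685), and Adam17, the protease that sheds TNF, by 0.54 ± 0.13. The metalloproteinase inhibitor Timp1 had 0.0891, 0.0915, 0.121 and 0.0529 CPM with fibrils and 0.144, 2.44 and 3.56 CPM as lowest, median and highest with LPS, and differed by -4.60 ± 0.87. Fibroblast markers moved the same way as the lower members of this list. Of 12, 9 (75.0%) were lower with fibrils, against 18.9% of all tested genes. These markers had a median log2 fold change of -4.0, and in the fibril libraries up to 3 of 12 were at 0 in a library. Their part in the result was not tested.

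Genes of resting microglia were lower with fibrils in 6 of 22 cases and higher in 2, a called share of 36.4% that is close to the 37.1% of all tested genes. P2ry12, the ADP receptor that guides microglial processes, had 2.58, 2.68, 2.25 and 3.22 CPM with fibrils, against 5.54, 11.6 and 14.4 CPM as lowest, median and highest with LPS and 5.72 to 14.1 CPM in controls. The fibril libraries lay below every library of the other groups, and the difference was -1.96 ± 0.39 (adjusted p 0.000366). LPS over control was 0.09 ± 0.33 (adjusted p 0.937). Gpr34, a lysophosphatidylserine receptor, differed by -2.68 ± 0.60 and the transcription factor Mef2c by -1.10 ± 0.17 (adjusted p 0.00111 and 1.35e-05). Csf1r, the receptor that microglia need to survive, was higher by 0.41 ± 0.15, a call lost in 8 of 30 fits leaving out a library (any fibril library, LPS replicate 1, 3 or 4, or control 5), with an adjusted p up to 0.0809. Trem2, a lipid receptor of microglia, differed by 0.01 ± 0.24 (adjusted p 0.981) and Apoe, a lipid carrier, by 0.17 ± 0.20 (adjusted p 0.52).

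Of 33 genes of phagocytosis, 6 were higher with fibrils and 8 lower, a called share of 42.4% against 37.1% of all tested genes. Olr1, a scavenger receptor for oxidised lipoprotein, had 1.69, 0.915, 1.76 and 0.687 CPM with fibrils and 26.2, 28.6 and 42.5 CPM as lowest, median and highest with LPS, a difference of -4.70 ± 0.43 (adjusted p 7e-09). The scavenger receptors Marco and Msr1 stood the other way. Marco had 1223, 1334, 1225 and 1324 CPM with fibrils and 169.8, 555 and 730.2 CPM as lowest, median and highest with LPS, a difference of 1.37 ± 0.40 (adjusted p 0.00862), and Msr1 differed by 0.93 ± 0.29 (adjusted p 0.0145). The Msr1 call was lost without LPS replicates 1 and 6 together and with the marker score as covariate, with an adjusted p up to 0.261. Log2 fold changes were -1.07 ± 0.15 for the mannose receptor Mrc1, -1.53 ± 0.24 for the integrin Itgav and -1.36 ± 0.28 for the receptor tyrosine kinase Axl.

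Antigen presentation genes were lower with fibrils in 8 of 21 cases and higher in none, all but 1 of them (H2-DMb1, -0.46 ± 0.15) by more than 2-fold. Their called share of 38.1% compares with 37.1% of all tested genes, of which 18.9% were called lower. Cd86, a costimulator of T cells, had 18.1, 18.02, 21.02 and 17.8 CPM with fibrils and 43.97, 101 and 124 CPM as lowest, median and highest with LPS, over 33.7 to 95.8 CPM in controls, a difference of -2.30 ± 0.46 (adjusted p 0.000356). Cd80, the related costimulator, differed by -2.50 ± 0.37. Class II genes were scarce: H2-Aa had 0.178, 0.275, 0 and 0.211 CPM with fibrils and 0.125, 0.769 and 6.96 CPM as lowest, median and highest with LPS, so the groups overlapped despite the difference of -3.33 ± 1.01 (adjusted p 0.0116), and the call was lost without LPS replicate 2 (adjusted p 0.0695). Of 14 purinergic genes 6 (42.9%) were lower with fibrils and none was higher, among them the adenosine receptor Adora2b (-3.10 ± 0.30) and the ectonucleotidase Entpd1 (-1.29 ± 0.29).

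Cell cycle genes were lower with fibrils in 23 of 30 cases (76.7%) and higher in none, against 18.9% and 18.1% of all tested genes. The list's median log2 fold change was -1.11. Fibrils also lowered 25 of the 30 relative to control, where 15.6% of all tested genes were lower. None of the 30 passed that test with LPS, where 15.1% of all tested genes did. Mki67, a marker of dividing cells, had 65.7, 59.5, 71.3 and 63.95 CPM with fibrils, against 201, 223 and 282 CPM as lowest, median and highest with LPS and 76.6 to 218 CPM in controls. The difference was -1.83 ± 0.35 (adjusted p 0.00022). The replication helicase genes Mcm4, Mcm6 and Mcm7 differed by -1.30 ± 0.22, -0.97 ± 0.20 and -1.43 ± 0.31. The list's mean was 3.85 to 3.98 log2 CPM with fibrils and 4.39 to 5.24 with LPS, and the lowest LPS library was replicate 6, which also had the lowest other-cell markers. With the marker score as covariate 16 of the 30 were lower. The source of the dividing cells' RNA was not tested.

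The other-cell markers are given in full because they moved with the treatment. With fibrils 9 of 11 astrocyte genes, 3 of 13 genes of the oligodendrocyte lineage, 2 of 4 neuronal genes and 3 of 5 endothelial or pericyte genes were lower than with LPS, and none was higher. Median log2 fold changes were -3.79, -3.60, -2.86 and -1.79. Gfap, the astrocyte filament, had 0.312, 1.49, 1.34 and 1.59 CPM with fibrils and 0.288, 9.26 and 101 CPM as lowest, median and highest with LPS, and Col1a1, the fibroblast collagen, 0.0445, 0, 0 and 0.159 CPM with fibrils and 0.0720, 8.45 and 20.4 CPM as lowest, median and highest with LPS. Groups overlapped for both genes, through LPS replicate 6. By limma-voom none of the astrocyte, oligodendrocyte or neuronal genes and 1 fibroblast gene were called. Of 2 tested markers of neutrophils and lymphocytes, S100a8, a calgranulin, was higher with fibrils by 1.94 ± 0.64, a call lost without fibril replicate 4 (adjusted p 0.0591).

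Lrrk2 (chr15:91673175-91816120, plus strand), the large kinase mutated in familial Parkinson's disease, had 9.49, 7.56, 6.87 and 7.88 CPM with fibrils, against 11.4, 15.5 and 15.9 CPM as lowest, median and highest with LPS and 10.3 to 16.7 CPM in controls. All fibril libraries lay below all LPS and control libraries, and the difference was -0.91 ± 0.22 (adjusted p 0.00209). Of 20 genes tested that are tied to Parkinson's disease or synuclein handling, 6 were lower with fibrils and 1 was higher, a called share of 35.0%, near the 37.1% of all tested genes. The lipid transfer gene Vps13c differed by -1.10 ± 0.28 and the phospholipase Pla2g6 by -0.62 ± 0.18. The retromer subunit Vps35 was higher by 0.19 ± 0.07, a call lost in 11 of 30 fits leaving out a library (any fibril library, LPS replicate 1, 2, 3, 4 or 5, control 5, or KO LPS 3), with an adjusted p up to 0.119.

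The same comparison in Lrrk2 KO microglia shares no library with the wild-type one. Of 14346 genes, 3805 (26.5%) differed between fibrils and LPS in KO cells, 13.8% higher and 12.7% lower with fibrils. Of the 5316 genes called in wild type, 4335 (81.5%) had the same sign in KO cells, 2285 were called there with the same sign, and 15 were called with the opposite sign. The 2285 shared calls are 43.0% of the wild-type list and 60.1% of the KO list. Across all tested genes, which are not independent replicates, the log2 fold changes of the genotypes correlated at r = 0.30, at 0.64 among the 8599 abundant genes and at 0.22 among the other 5747.

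The split by abundance carried over. Of the 79 abundant genes at least 4-fold lower with fibrils in wild type, 65 (82.3%) were also called lower in KO cells, with a median of -2.82 in wild type and -2.07 in KO cells. Of the 762 scarce ones 98 (12.9%) were, close to the 12.7% of all tested genes called lower in KO cells, with a median of -3.53 in wild type and -0.01 in KO cells. KO fibril libraries held more of the other-cell markers than wild-type ones: astrocyte markers summed to 56.1 to 301.4 CPM in KO fibril libraries and 34.2 to 193.5 CPM in KO LPS libraries. Their part in the difference was not tested. The antioxidant list, with 14 higher and 2 lower and a median of 0.22 in wild type, had 3 higher and 6 lower and a median of -0.24 in KO cells. The glycolysis list, with 13 higher and 1 lower and a median of 0.54 in wild type, had 1 higher and 1 lower and a median of -0.18 in KO cells. The difference between genotypes was called for 4 antioxidant and 2 glycolysis genes. Nr4a1 was -6.69 ± 0.79 in KO cells, Tnf -1.68 ± 0.22, Dusp1 -3.42 ± 0.30, Tnfaip3 -3.16 ± 0.21, Txnip 2.88 ± 0.26 and Sod2 1.29 ± 0.15 (adjusted p at most 1.98e-06).

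The difference itself between the genotypes was called for 161 genes (1.12%), 69 more positive in wild type (0.481%) and 92 more negative (0.641%). The count depends on single libraries: it was 1 without KO LPS replicate 1, wild-type fibril replicate 1 or wild-type fibril replicate 2, and 628 without KO fibril replicate 2, and 2 with the marker score as covariate. Il6 is an example of a wild-type call without a KO call: fibrils over LPS was -4.21 ± 0.81 in wild type and -1.65 ± 0.69 in KO cells (adjusted p 0.0764), but the difference of -2.56 ± 1.01 did not pass the test (adjusted p 0.139). Gsr and Gss were more strongly raised by fibrils over LPS in wild type than in KO, by 0.74 ± 0.17 and 0.82 ± 0.17 (adjusted p 0.0352 and 0.0257), and the values in KO cells were 0.56 ± 0.12 and 0.20 ± 0.12. Pgk1 was 0.94 ± 0.19 in wild type and -0.19 ± 0.20 in KO cells, a difference of 1.13 ± 0.28 (adjusted p 0.0449). Csf1 was -2.87 ± 0.44 in wild type and -0.04 ± 0.40 in KO cells, a difference of -2.83 ± 0.59 (adjusted p 0.0287).

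**Figure D5:**
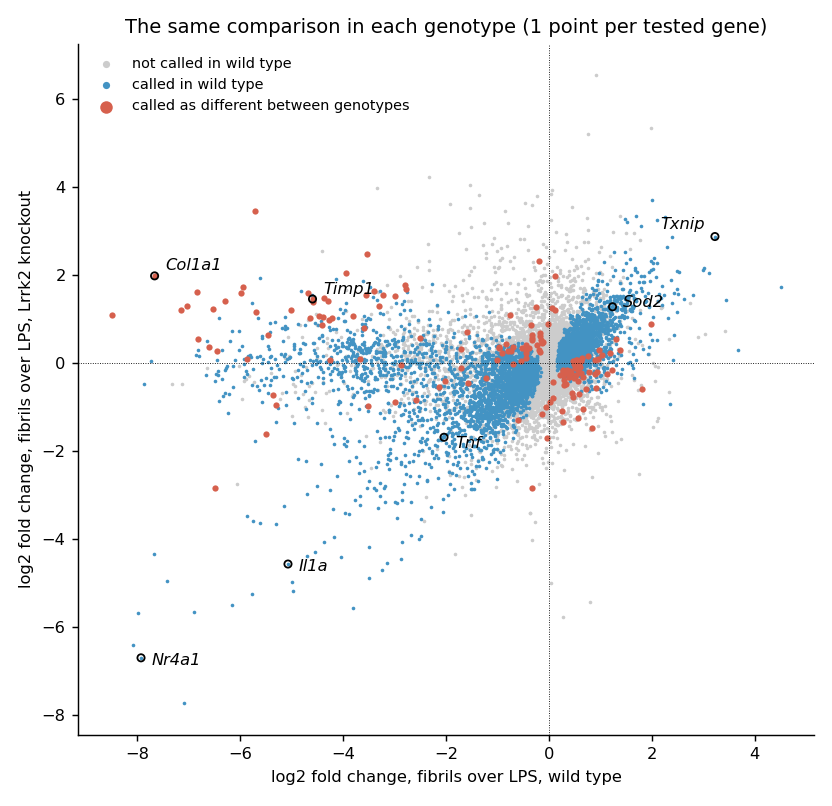
Log2 fold change of fibrils over LPS in wild-type microglia (horizontal axis) and in Lrrk2 KO microglia (vertical axis); each point is 1 of 14346 genes, blue where called in wild type and red for the 161 genes called as different between genotypes. Nr4a1, Il1a and Tnf lie low on both axes, Txnip and Sod2 high on both, and Col1a1 and Timp1 are negative in wild type and above 0, without a call, in KO.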

How the data were processed

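RNA-seq libraries of primary mouse microglia were analysed. Per the submitters' processing notes, CASAVA 1.7.1, STAR 2.4.2a and mm10 were used; the labels name no counting program. The authors deposited expected counts per Ensembl transcript, made from reads aligned to mm10 per the submitters' processing notes, all whole numbers. These were summed to genes with GENCODE M21 (GRCm38); 91320 of 94647 transcripts matched, and the others held 0.779 to 0.891% of counts. Gene totals of the 10 compared libraries ranged from 14277344 to 35677005.

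The 14346 genes kept by edgeR's filterByExpr were fitted in all 30 libraries with 1 mean per group, TMM scaling and edgeR 4.0.16 quasi-likelihood tests (R 4.3.3), with Benjamini-Hochberg adjusted p under 0.05. Fits were tested on simulated data. Alternatives used DESeq2 1.42.0, limma-voom 3.58.1, other scalings and filters, and libraries left out.

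Members and gene lists were chosen with earlier results of these data known. Named genes were the 12 most changed in each direction at a mean log2 CPM of at least 3, up to 4 called members per list, a fixed set of inflammatory and microglial genes, genes behind counts of 5 or fewer, and up to 6 with a genotype difference. Outside that rule, Acod1, Atf3, Ccl3, Ccl4, Clec4e, Csf3, Dusp4, Dusp6, Elavl1, Fosb, Fosl2, Gch1, Gclm, H2-DMb1, Icam1, Il27, Isg15, Jund, Klf10, Klf2, Klf4, Marco, Nqo1, Nr4a2, Nr4a3, Osm, Prdx1, Ptges, Rel, Rela, Relb, Rsad2, Slc16a3, Tnfsf15 and Txnrd1 were chosen after their values were seen. A few genes picked by this rule are left out here.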

Additional observations from a re-analysis of the deposited data

Results flagged for a closer look

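In 38 named genes, each wild-type group was examined for a library far from the rest, and 14 of 76 gene and group pairs held one; chance gives about 1 in 20. In LPS replicate 6 the level was the highest of its group, in CPM, for Tnf (2757), Il1b (2029), Nlrp3 (1723), Cd14 (1576), Tnfsf9 (702.3), Errfi1 (701.2), Kdm6b (179.8), Rn7s1 (48.24), H2-M2 (16.56) and Ak4 (15.77), and the lowest for Lrrk2 (11.38). The same library had the lowest astrocyte and fibroblast marker means among LPS libraries; their part in these levels was not tested. Among fibril libraries, replicate 2 was highest for Nlrp3 (161.0 CPM) and lowest for Layn (21.2 CPM), and replicate 3 was lowest for Csrnp1 (9.721 CPM).

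For 18 named genes the response to fibrils over LPS differed between the genotypes by the test of that difference (edgeR, adjusted over all genes). On the log2 scale, wild type minus KO, Col1a1 (-9.65), Col1a2 (-8.46), Mgp (-7.7) and Col3a1 (-7.58), all of the fibroblast list, were more negative in wild type. Cd209f (-9.19), Timp1 (-6.06), Lif (-3.89), Csf1 (-2.83), Noc4l (-0.9) and Rbm22 (-0.7) were also more negative. More positive in wild type were Layn (2.4), Serpinb9 (1.7), Pgk1 (1.13), Gss (0.82), Blvrb (0.82), Gsr (0.74), Galk2 (0.5) and Lpcat3 (0.42). These calls depend on single libraries, as the next section gives.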

How the results depend on the processing

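Between wild-type fibrils and LPS, 5316 genes were called, and each alternative stayed within 1.5 times that: 5211 with RLE scaling, 5065 with library size only, 4456 without a filter, 5090 with a 1 CPM filter, 5786 by DESeq2, 4609 by limma-voom, 6523 from the 10 compared libraries, 6334 from the 15 wild-type libraries, 4537 without LPS replicates 1 and 6, 4224 with the marker score as covariate, and 4154 to 5604 leaving out 1 library at a time. The share of calls higher with fibrils was 48.9%, 43.4% with RLE scaling, 41.8% by DESeq2, 50.2% with library size only and 56.0% by limma-voom. Of 175 called named genes 124 kept the call in all 41 alternatives, and none reversed. Depth limits scarce genes such as Nos2, which was not tested.

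The genotype difference, 161 genes, was far less stable: 71 without a filter (14 more positive and 57 more negative in wild type), 1020 by DESeq2 (323 and 697), 21 by limma-voom (16 and 5), 80 without LPS replicates 1 and 6 (31 and 49), 2 with the covariate (0 and 2), and 1 to 628 leaving out 1 library (0 to 326 and 1 to 363). It moved by over 1.5 times without any 1 of 21 libraries, all but wild-type controls 1, 2, 3 and 5, KO controls 1, 2, 3 and 5 and wild-type LPS 2. The cause was not tested. Same-numbered fibril and LPS libraries correlated at -0.14 to -0.01, and differently numbered ones at -0.07 to 0.17. All were weak, so they cannot decide whether the numbers pair the libraries. Between wild-type LPS and control libraries, number 6 correlated at 0.65 and number 1 at 0.37, but LPS 1 and control 3 at 0.68. The replicate block gave 5660 genes between stimuli and 714 for the genotype difference (351 and 363).

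Trem2, near 0, reversed to -0.0283 with RLE scaling, -0.0132 without a filter, -0.0218 with the 1 CPM filter, -0.0282 by DESeq2, -0.0024 with the replicate block, -0.0095 in 10 and -0.0033 in 15 libraries, -0.0018 without LPS replicates 1 and 6, and -0.1158 with the covariate, and ranged from -0.0496 to 0.0609 leaving out 1 library. With the covariate Apoe was -0.2015 and Hmox1 -0.0019. Hmox1, not called, passed at 0.6431 in 10 libraries, 0.6488 in 15 and 0.9233 with the block (adjusted p 0.0285, 0.0325 and 0.0116), and Tlr4 passed in 10 and in 15 libraries.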

Other observations

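Of 21 sterol synthesis genes 2 were higher with fibrils than with LPS and none was lower: Mvd (1.31 ± 0.39) and Hsd17b7 (1.30 ± 0.48), both enzymes of cholesterol synthesis. The list's called share was 9.5%, well under the 37.1% of all tested genes, of which 18.1% were called higher. Its median log2 fold change was 0.67. Fibril and LPS libraries overlapped for both genes. Hsd17b7 lost its call in 9 of 30 fits leaving out a library (any fibril library, or LPS replicate 2, 3, 4, 5 or 6), with an adjusted p up to 0.0797, and with library size only and with the replicate block. The count was 11 without LPS replicate 1, where 4784 of 14299 tested genes were called, 2451 of them higher. It was 19 with the marker score as covariate, chosen after seeing the data, with a median of 1.53. That fit called 4224 of 14346 genes, 2123 of them higher.

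Of 36 lysosomal genes 1 was higher and 4 were lower, among them the galactosylceramidase Galc (-0.74 ± 0.17) and the protease Ctsc (-0.93 ± 0.24). Of 22 autophagy genes 5 were higher and 3 lower: Atg5, of the conjugation machinery, had 0.58 ± 0.08, the initiating kinase Ulk1 -1.52 ± 0.23 and the cargo receptor Optn -0.67 ± 0.18. Of 26 genes of endoplasmic reticulum stress 4 were higher and 5 lower, among them the phosphatase subunit Ppp1r15a (-2.64 ± 0.30) and the chaperone Dnajb9 (-0.52 ± 0.13). Of 30 genes of oxidative phosphorylation 3 were higher and 1 lower. Called shares were 13.9% for the lysosomal, 36.4% for the autophagy, 34.6% for the endoplasmic reticulum and 13.3% for the oxidative phosphorylation list, against 37.1% of all tested genes. Medians of these 4 lists were 0.06, 0.03, 0.02 and 0.13, and the signs of the autophagy and stress medians changed with RLE scaling.

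Of 26 genes of disease-associated microglia 5 were lower with fibrils and none was higher: Csf1, Axl, Ch25h (-1.24 ± 0.34), Ank and Cd9 (-1.04 ± 0.40). That is 19.2% of the list, against 18.9% of all tested genes called lower. Cd9 lost its call in 7 of 30 fits leaving out a library (any fibril library, or LPS replicate 2, 5 or 6), with an adjusted p up to 0.136. Ch25h, which makes 25-hydroxycholesterol, was above control with both stimuli, at 1.72 ± 0.35 with fibrils and 2.96 ± 0.34 with LPS. Of 7 border macrophage markers Mrc1 and Cd209f were lower and none was higher, a called share of 28.6% against 37.1% of all tested genes. Cd209f lost its call without LPS replicate 1 (adjusted p 0.0575). Of 19 replication histone genes 2 were higher and 1 lower, a called share of 15.8%.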
